A study of Mus musculus with 7 samples.

Results

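The aryl hydrocarbon receptor gene Ahr and 4 of its best known target genes, Ahrr, Tiparp, Cyp1a1 and Cyp1b1, were followed in group 2 innate lymphoid cells (ILC2s) with and without Gfi1. ILC2s are innate lymphocytes of type 2 immunity, which lack antigen receptors, and Gfi1 is a transcriptional repressor. The members were all probes whose accession maps to these 5 genes: 8 probes of the 39429 on the array, and 5 of its 32585 genes. Of the 5 genes, 4 were bright enough to be tested, among 25347 tested genes.

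The wild-type group was Gfi1+/+ and the knockout group was Gfi1GFP/GFP, also written Gfi1-/-, in which a GFP cassette placed in the Gfi1 locus abolishes gene function and reports promoter activity. Mice of both genotypes received daily IL-25 injections for 4 days. On day 5 cells that were c-Kit+, CD127+, ICOS+, Sca-1+ and Lin- were sorted from mesenteric lymph nodes, and they were then kept in culture for 6 days with IL-2 at 50 ng/ml, IL-7 at 10 ng/ml and IL-25 at 50 ng/ml. Wild-type samples were pools of 3 mice (4 arrays) and knockout samples were pools of 6 mice (3 arrays). The ages and sexes of the mice are not given in the sources used here. The values therefore describe cultured, cytokine-fed cells from animals already given IL-25, and no group without IL-25 was analysed here.

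Each array compared ILC2 RNA, labelled with the red dye Cy5, against a commercial universal mouse reference RNA labelled with the green dye Cy3. Unless the sample channel is named, a value is the log2 ratio of sample over reference, and a difference is knockout minus wild type, also in log2 units. Dyes were not swapped, so a ratio against the reference can hold a dye effect that is the same on all arrays. Between 67.4% and 80.9% of probes were well above background in the sample channel. Precision is limited by there being 7 arrays. All 14 ILC2 markers were above background on every knockout array, and 13 or 14 of them on each wild-type array. The Gfi1 probe read 2.02 ± 0.23 (SD, n = 4) on wild-type and 4.28 ± 0.02 (SD, n = 3) on knockout arrays. Its position relative to the cassette is not known here, so it checks no label, and every direction below rests on the arrays as labelled. The labels describe each sample as a pool of mice but do not say whether cultures were run separately, so p-values measure the spread between these samples, part of which may be technical.

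The aryl hydrocarbon receptor is a ligand-activated transcription factor of the basic helix-loop-helix PAS family. It waits in the cytosol bound to HSP90 and p23, enters the nucleus when it meets a ligand such as a dioxin or a tryptophan metabolite, pairs there with ARNT and binds DNA elements with a GCGTG core. Cytochromes P450 that break down ligands are induced this way, and so are the repressors AHRR and TIPARP, which limit the response. In the gut the receptor is needed for ILC3 maintenance and is also made by ILC2s.

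The receptor transcript was lower in knockout ILC2s, and 1 of its 2 probes carried the measurement. At probe A_55_P2109613 the log2 ratios of Ahr were 0.10, 0.06, -0.01 and -0.17 on wild-type arrays 1 to 4, and -0.62, -0.75 and -0.99 on knockout arrays 1 to 3. Every knockout array lay below every wild-type array, with knockout array 3 the lowest. Wild-type ILC2s thus held about as much Ahr signal as the reference RNA, at -0.01 ± 0.12 (SD, n = 4), against -0.79 ± 0.19 (SD, n = 3) in the knockout. Ahr fell 1.72-fold (log2 difference -0.78, SE 0.11, 95% interval -1.03 to -0.53, limma adjusted p = 0.00292). In the sample channel alone, where the level went from 11.70 ± 0.13 to 10.95 ± 0.17 log2 intensity units, the fall was 1.67-fold (adjusted p = 0.00654), and the reference channel differed by 0.04. In bulk samples, less Ahr RNA per cell and fewer cells that make Ahr cannot be told apart. The other Ahr probe, A_65_P06603, was not well above background on any of the 7 arrays in either channel, with raw sample signals of 33.5 to 41.0 over local backgrounds of 26 to 32, so it gave no test of the call.

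The Ahr call depended on how slides were treated. Slide 1 held wild-type array 4 and knockout array 1, slide 2 held wild-type array 1 and knockout arrays 2 and 3, and slide 3 held only wild-type arrays 2 and 3. The log2 difference of Ahr was -0.44 on slide 1 and -0.98 on slide 2. Under a slide block, a fit that takes the difference from the 5 arrays on slides 1 and 2, it was -0.75 and missed the threshold (limma adjusted p = 0.0681). Under that fit 1.89% of all tested genes were called. The summed sample-channel intensity of the 14 ILC2 markers was 830500 to 1128000 on wild-type arrays and 601500 to 745200 on knockout arrays. It was thus also lower on every knockout array. Such a sum is weighted towards its brightest genes and is not set against the reference. Icos, the brightest, differed by -0.68 in the sample channel and also by -0.57 in the reference channel. As a ratio Icos differed by -0.11 (limma adjusted p = 0.7). The median log2 difference of the 14 markers was -0.27, with 4 positive and 10 negative, and the calls went both ways. Ptgdr2 (6.05-fold) and Il17rb (3.60-fold) were called higher, Il1rl1, Gata3 and Ly6a were called lower, and 9 were not called. Over all tested genes 3.29% were called higher and 4.24% lower. The part of ILC2 content in the Ahr result was not tested.

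Among the 4 tested members Ahr was the 1 that passed the test, where 7.53% of all tested genes passed in either direction and 4.24% passed as lower. Over all genes, 43.7% of the 1908 calls were higher in the knockout, and 55.5% of 1614 with median centring in place of loess normalization, under which Ahr differed by -0.72 and remained called. Knockout and wild-type values were fully apart for 2 of the 4 members, Ahr and Tiparp, both lower, where 10.2% of tested genes showed no overlap and lower knockout values. The plot of log2 ratios by array shows these 4 genes.

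**Figure D1:**
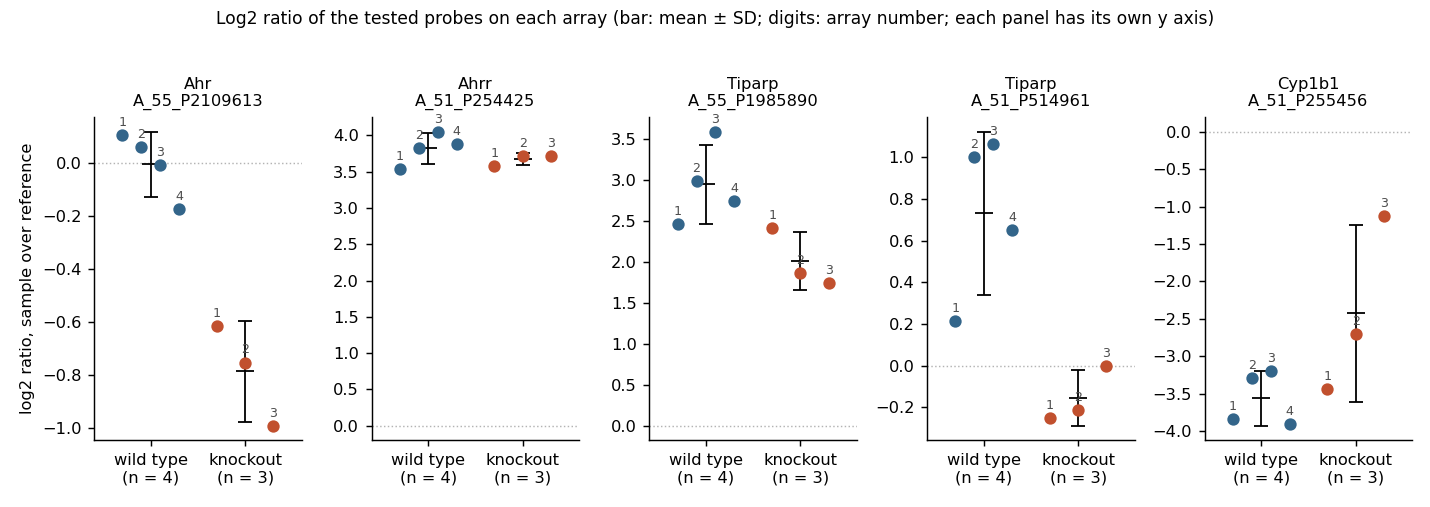
Log2 ratio of sample over reference (y axis, a separate range in each panel) for the 5 tested probes of Ahr, Ahrr, Tiparp and Cyp1b1, with 1 point per array, the array number above it, and mean ± SD as bars for 4 wild-type (blue) and 3 knockout (orange) arrays. Knockout points lie below all wild-type points for Ahr and both Tiparp probes, overlap them for Ahrr, and spread from -3.44 to -1.13 for Cyp1b1.

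The targets were chosen as genes whose control regions the receptor is known to bind. Their sequences just upstream of the transcription start are shown as a description. Whether the known binding sites lie within these stretches was not checked. RefSeq windows (build GRCm38.p6) matched 4 of the 5 genes: Ahrr, Tiparp, Cyp1a1 and Cyp1b1. Each line gives the 250 bases before the start, 5′ to 3′ on the gene's strand, with the receptor core GCGTG, or CACGC where the core lies on the opposite strand, in capitals. The windows are chr13:74292332-74292581 (minus strand) for Ahrr, chr3:65528197-65528446 (plus strand) for Tiparp, chr9:57697363-57697612 (plus strand) for Cyp1a1 and chr17:79715062-79715311 (minus strand) for Cyp1b1.
Ahrr: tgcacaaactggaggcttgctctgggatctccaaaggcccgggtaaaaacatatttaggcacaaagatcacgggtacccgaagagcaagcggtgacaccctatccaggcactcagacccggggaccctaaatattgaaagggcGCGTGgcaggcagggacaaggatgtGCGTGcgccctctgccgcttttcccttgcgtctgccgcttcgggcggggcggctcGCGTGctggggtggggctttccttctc
Tiparp: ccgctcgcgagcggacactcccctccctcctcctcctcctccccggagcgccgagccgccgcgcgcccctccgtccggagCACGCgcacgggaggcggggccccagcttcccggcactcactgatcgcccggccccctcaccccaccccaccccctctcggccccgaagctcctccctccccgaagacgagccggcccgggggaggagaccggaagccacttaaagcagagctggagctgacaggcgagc
Cyp1a1: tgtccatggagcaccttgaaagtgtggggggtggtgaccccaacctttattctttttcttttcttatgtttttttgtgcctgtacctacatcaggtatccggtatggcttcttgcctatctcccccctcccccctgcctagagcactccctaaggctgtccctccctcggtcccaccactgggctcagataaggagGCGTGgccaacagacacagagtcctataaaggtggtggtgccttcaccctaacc
Cyp1b1: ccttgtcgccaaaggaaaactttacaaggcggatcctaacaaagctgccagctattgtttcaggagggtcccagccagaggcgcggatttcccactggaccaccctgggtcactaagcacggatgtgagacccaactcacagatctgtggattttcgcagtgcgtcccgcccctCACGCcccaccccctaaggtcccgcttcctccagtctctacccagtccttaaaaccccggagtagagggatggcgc
All 4 windows held the core, which was searched on both strands. Of 32851 such windows over the genome, 28.2% held it. Ahrr had 3 copies on its own strand, the nearest ending 23 bases before the start. Cyp1a1 had 1 copy, 54 to 50 bases upstream. Cyp1b1 and Tiparp had 1 each on the opposite strand, 76 to 72 and 170 to 166 bases upstream. The longer form TNGCGTG, which contains the core and so overlaps it, was found in Ahrr alone (1 copy) and in 4.1% of all windows. The short Gfi1 core AATC was present in Cyp1b1 (2 copies) and in none of the other 3 windows, against 69% of all windows. The GC content of the windows was 60.4% for Ahrr, 75.2% for Tiparp, 53.6% for Cyp1a1 and 58% for Cyp1b1, with a median of 52.4% over all windows. A letter match is a description of the sequence, and binding was not measured.

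Ahrr, the receptor's competitor for ARNT, stood well above the reference in both genotypes. Its log2 ratios at probe A_51_P254425 were 3.54, 3.83, 4.05 and 3.88 on wild-type arrays 1 to 4 and 3.58, 3.72 and 3.72 on knockout arrays 1 to 3. All knockout values lay inside the wild-type range. The sample held 14.2-fold the reference signal in the wild type (3.82 ± 0.21, SD, n = 4) and 12.7-fold in the knockout (3.67 ± 0.08, SD, n = 3). The scanner software's own ratios, which carry no offset of 50, were larger, with mean log2 ratios of 4.81 in the wild type (28.1-fold) and 4.64 in the knockout. The difference of -0.15 (SE 0.12, limma adjusted p = 0.564) had a 95% interval of -0.42 to 0.11, which leaves room for a fall of up to 0.42 or a rise of up to 0.11. It was -0.30 within slide 1 and 0.18 within slide 2. A further Ahrr probe, A_55_P2128388, was above background on wild-type array 4 alone and was not tested.

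Tiparp encodes PARP7, an ADP-ribosyltransferase that modifies and restrains the receptor, and its 2 probes were both bright. At A_55_P1985890 the log2 ratios were 2.46, 2.99, 3.59 and 2.74 on wild-type arrays 1 to 4 and 2.41, 1.86 and 1.75 on knockout arrays 1 to 3. At A_51_P514961 they were 0.21, 1.0, 1.07 and 0.65 on wild-type arrays and -0.25, -0.21 and -0.00 on knockout arrays. The groups did not overlap at either probe, although wild-type array 1 (2.46) and knockout array 1 (2.41) nearly met at the brighter probe. Wild-type arrays 2 and 3, the pair on slide 3, had the highest values at both probes.

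The brighter probe, which stands for the gene, averaged 2.95 ± 0.48 (SD, n = 4) in the wild type and 2.01 ± 0.36 (SD, n = 3) in the knockout. Its log2 difference was -0.94 (SE 0.25, 95% interval -1.51 to -0.37), a ratio of 1.92-fold, and it missed the threshold (limma adjusted p = 0.0568). The dimmer probe, at 0.73 ± 0.39 (SD, n = 4) and -0.15 ± 0.13 (SD, n = 3), gave -0.89 (SE 0.19). In the limma fit over all 30293 tested probes, the dimmer probe passed (adjusted p = 0.021) and the brighter probe did not (adjusted p = 0.0555). The mean of the probes also passed in the fit over genes (-0.91, adjusted p = 0.0238). On slide 1 the brighter probe differed by -0.33 and on slide 2 by -0.66. The slide block gave -0.52 (adjusted p = 0.341), so the call rests on the probe and the setting. Leaving out wild-type array 1 gave -1.10 (adjusted p = 0.0335) and leaving out knockout array 1 gave -1.14 (adjusted p = 0.0353), both past the threshold.

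Cyp1a1, the cytochrome most used to read receptor activity, was not well above background on any of the 7 arrays in either channel. Raw sample signals of its probe A_51_P279693 were 33.0 to 42.5 on wild-type arrays over backgrounds of 28.0 to 32.5. On the knockout arrays they were 37.0, 37.0 and 80.5, the last on knockout array 3. A Cyp1a1 transcript below this detection level cannot be seen in either genotype, and no difference or fold is given.

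Cyp1b1, a cytochrome that oxidises estrogens and polycyclic hydrocarbons, was dim in ILC2s and bright in the reference. Its log2 ratios at probe A_51_P255456 were -3.84, -3.29, -3.20 and -3.91 on wild-type arrays 1 to 4 and -3.44, -2.71 and -1.13 on knockout arrays 1 to 3. Knockout array 1 lay within the wild-type range, knockout array 2 above it, and knockout array 3 far above it. Raw sample signals were 119.5 to 164.0 on wild-type arrays and 210.0, 356.0 and 1291.0 on knockout arrays 1 to 3, over backgrounds of 26.0 to 31.5. On this raw scale, unlike the ratio, knockout array 1 also lay above every wild-type array. Raw signals are not normalized between arrays. In the normalized sample channel knockout array 1 (7.11) lay below wild-type arrays 2 (7.22) and 3 (7.24). The sample lay 11.8-fold under the reference in the wild type (-3.56 ± 0.37, SD, n = 4) and 5.37-fold under it in the knockout (-2.42 ± 1.18, SD, n = 3). By the scanner software's own ratios it lay 17.2-fold and 5.53-fold under.

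The mean difference of Cyp1b1 was 1.13 (SE 0.45, 95% interval 0.11 to 2.15), with a raw limma p of 0.0329 and an adjusted p of 0.2. Slide 1 alone gave 0.47 and slide 2 alone 1.93, and the slide block gave 1.30 (adjusted p = 0.358). Knockout array 3 set most of its size: without it the difference was 0.49 (adjusted p = 0.372). Without knockout array 1 it was 1.64 and passed the threshold (adjusted p = 0.0406). Stromal, endothelial and epithelial markers, which mark cells known to make CYP1B1, had 8 to 11 of 11 probes above background on wild-type and 8 or 9 on knockout arrays. Their summed sample-channel intensity was 95030 to 113600 on wild-type arrays and 103300 to 137800 on knockout arrays, highest on knockout array 3. Without Vim, the brightest of them, which lymphocytes also express, the sums were 6388 to 7070 on wild-type arrays and 7393, 8187 and 8043 on knockout arrays 1 to 3, highest on knockout array 2. Of the 9 tested markers 3 were called higher and none lower, where 3.29% of all tested genes were called higher. These were Pdgfrb, a receptor of stromal cells (3.42-fold, limma adjusted p = 3e-04), Vim (1.48-fold, adjusted p = 0.0136) and Krt18 (1.27-fold, adjusted p = 0.0282). Under the slide block Pdgfrb stayed called (adjusted p = 0.00614), while Vim (0.121) and Krt18 (0.203) were lost. In the sample channel alone Vim differed by 0.20 (adjusted p = 0.418), and its reference channel differed by -0.37. The median difference of the 9 markers was -0.04, with 4 positive and 5 negative. The collagen gene Col1a1 was not called (adjusted p = 0.183) and had its lowest log2 ratio, -9.62, on knockout array 3. Pdgfra and Cdh5 were above background on at most 1 array. The part of such cells in the Cyp1b1 values was not tested.

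**Figure D2:**
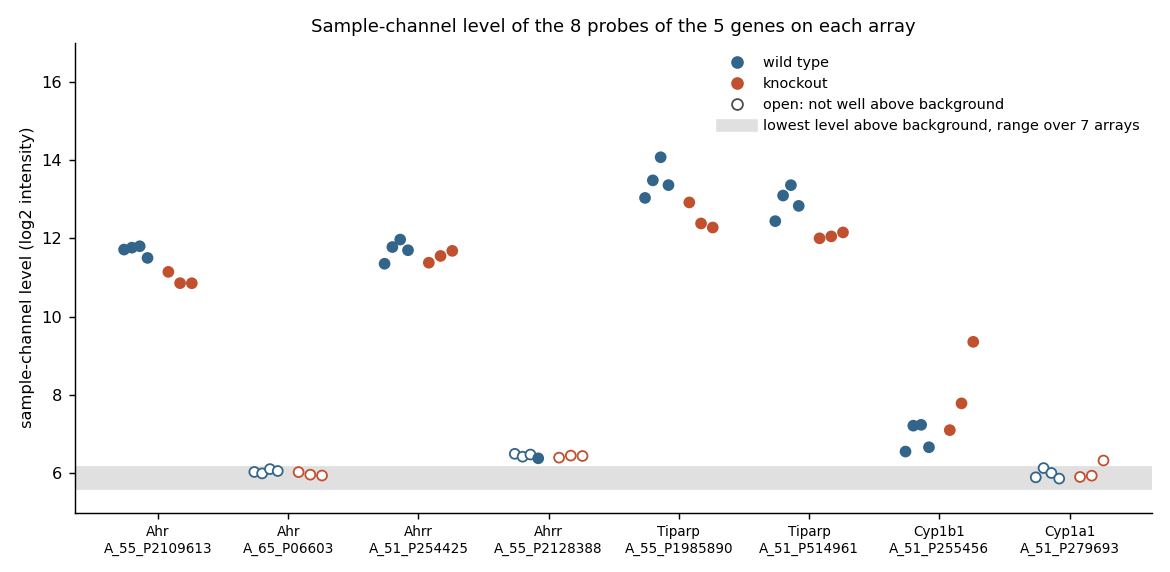
Sample-channel level (log2 intensity after loess and Aquantile normalization, y axis) of the 8 probes of Ahr, Ahrr, Tiparp, Cyp1b1 and Cyp1a1 on 4 wild-type (blue) and 3 knockout (orange) arrays, with open points where the probe was not well above background. The grey band from 5.61 to 6.17 is the range over the 7 arrays of the lowest level above background. The Cyp1a1 and A_65_P06603 points are open on every array, and levels of different probes are not comparable.

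The partners that hold or carry the receptor gave no called gene. The 6 tested members of the receptor complex had a median difference of 0.10, against -0.01 over all tested genes. None of them passed the test in either direction (limma, adjusted over all tested genes), where 7.53% of all tested genes passed. At an unadjusted p under 0.05, 3 of the 6 did, Arnt, Arnt2 and Hsp90ab1, where 19.5% of all tested genes did. Arnt, the nuclear partner, came nearest. Its log2 ratios were 0.99, 0.82, 1.07 and 1.01 on wild-type arrays 1 to 4 and 0.64, 0.66 and 0.18 on knockout arrays 1 to 3, with no overlap. The difference of -0.48 had an adjusted p of 0.0524 in limma, and -0.44 was measured at its other probe. Leaving out an array kept it between -0.56 and -0.32, past the threshold without knockout array 1. Arnt2, a paralog of ARNT best known from neurons, differed by 0.48 (adjusted p = 0.11), with overlapping groups. The chaperone gene Hsp90ab1 differed by -0.27, and by 0.03 in the sample channel alone. The co-chaperone gene Ptges3, which encodes p23, differed by 0.22 and the chaperone gene Hsp90aa1 by 0.02. In the sample channel alone, where 6.53% of all tested genes were called, Arnt (adjusted p = 0.0446) and Arnt2 (adjusted p = 0.0319) passed.

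The list of the receptor's wider detoxification battery holds 14 genes, 10 of them tested, with a median difference of 0.01. Of these Aldh3a1 alone was called, as lower. Over all tested genes 4.24% were called lower and 3.29% higher. Aldh3a1, an aldehyde dehydrogenase induced by dioxin in liver, had log2 ratios of 1.59, 1.23, 1.82 and 1.80 on wild-type arrays 1 to 4 and 0.44, 0.25 and 0.48 on knockout arrays 1 to 3. The groups lay apart by more than the range within either of them. Aldh3a1 fell 2.32-fold (log2 difference -1.22, SE 0.14, limma adjusted p = 0.00124), and its other probe gave -1.13 (adjusted p over probes 0.00101). It was -1.36 on slide 1 and -1.22 on slide 2, and the call held under the slide block (adjusted p = 0.0235), in all 7 fits that left out an array and under all 19 other settings.

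The other battery genes stayed closer to 0. Nqo1, a quinone reductase that NRF2 also drives, differed by 0.29 (limma adjusted p = 0.12), Ugt1a6b, a glucuronosyltransferase, by 0.27 (adjusted p = 0.169) and Scin, an actin-severing protein, by 0.24 (adjusted p = 0.804). The Nqo1 groups did not overlap, at -2.56 to -2.45 on wild-type and -2.40 to -2.04 on knockout arrays, and the gene passed the threshold once knockout array 1 was left out. Cyp1a2, Ugt1a6a, Gsta2 and Serpinb2 were above background on no array. Values of Ugt1a6b and Gsta1 are uncertain, because near-identical paralogs may bind the same probes.

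**Figure D3:**
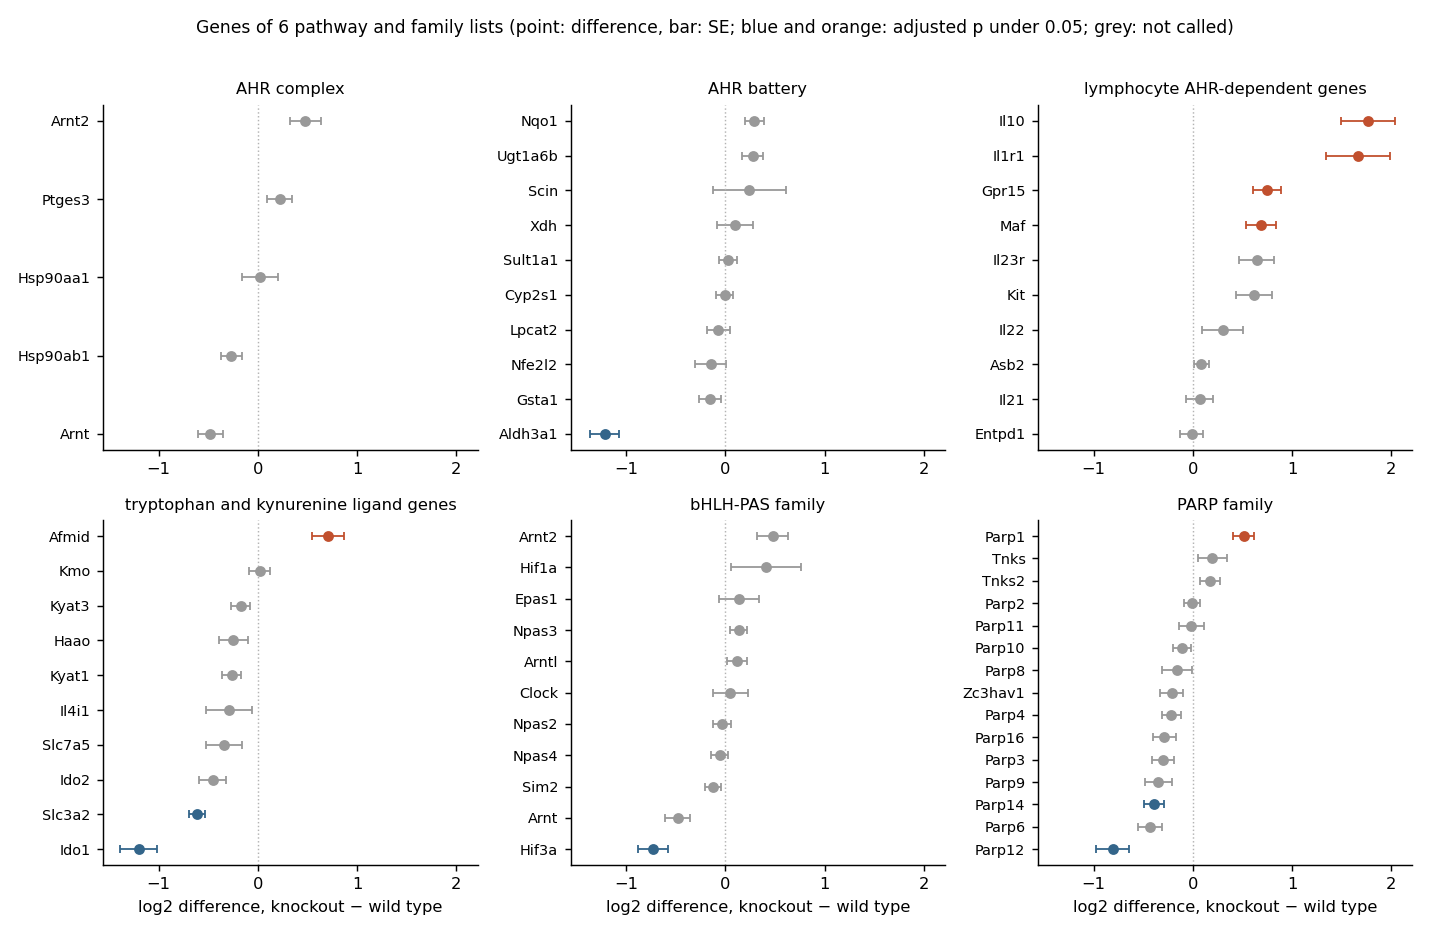
Log2 difference, knockout minus wild type (x axis), of tested genes of 6 lists around the receptor, with the gene on the y axis, SE as bars, and called genes in orange (higher) or blue (lower). Of 10 lymphocyte genes shown 4 are orange, and Aldh3a1 is the only blue point of the battery.

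Genes that the receptor is reported to support in lymphocytes were partly higher in the knockout, where Ahr itself was lower. Of 11 tested genes 5 rose and none fell, at a median difference of 0.64. Over all tested genes 3.29% rose. With slide as a block 1 of the 11, Il10, was called. Il10, an inhibitory cytokine, had log2 ratios of 2.21, 1.45, 0.91 and 1.06 on wild-type arrays 1 to 4 and 2.94, 3.31 and 3.28 on knockout arrays 1 to 3. Even the highest wild-type array, array 1, lay below every knockout array. Il10 rose 3.41-fold (limma adjusted p = 0.00456, and 0.0299 under the slide block).

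Il1r1, the IL-1 receptor of type 17 lymphocytes, stood at -3.43 to -3.06 on wild-type arrays and at -2.54, -0.83 and -1.59 on knockout arrays 1 to 3. It rose 3.17-fold (limma adjusted p = 0.0131, and 0.141 under the slide block), by 0.52 within slide 1 and 2.17 within slide 2. Knockout array 2 was the highest and knockout array 1 the lowest of the knockout arrays, and all 3 lay above every wild-type array.

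Gpr15, a homing receptor for the large intestine, rose 1.68-fold (limma adjusted p = 0.012), and Maf, a transcription factor, rose 1.61-fold (adjusted p = 0.0222). With the slide block their adjusted p-values were 0.123 and 0.184. The Maf call was lost without wild-type array 1, knockout array 1 or knockout array 3 (adjusted p up to 0.0626). Kit, a sort marker and growth factor receptor, differed by 0.62 (adjusted p = 0.0863) and Il23r, the IL-23 receptor, by 0.64 (adjusted p = 0.0628), the latter with signal over background on 1 wild-type array. Leaving out an array brought Kit (without wild-type array 3, log2 difference at most 0.77 over these fits) and Il23r (without wild-type array 4 or knockout array 1, at most 0.82) past the threshold. Il22, a cytokine that depends on the receptor in ILC3s, differed by 0.30 (adjusted p = 0.493), with 0.95 on knockout array 3 against -0.06 to 0.16 on the other arrays.

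Il22 and Il23r of this list are also ILC3 markers. The ILC3 markers had 2 to 5 of 6 probes above background on wild-type arrays and 4 or 5 on knockout arrays, and their summed sample-channel intensity was 1156 to 6626 and 21930 to 28130. Lta, which other lymphocytes also make, was most of that sum. Without it the sums were 590.3 to 744.7 and 756.9 to 1296.0. Ncr1, the NKp46 receptor of an ILC3 subset, was above background on no array. All 9 T cell markers were above background on every array, with sums of 11350 to 20050 on wild-type and 11870 to 20370 on knockout arrays. The part of such cells in these results was not tested.

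Genes that make or import the receptor's tryptophan-derived ligands were measured as a further list, of which 10 of 12 genes were tested. Here 2 fell and 1 rose, at a median difference of -0.28, where 4.24% of all tested genes fell and 3.29% rose. Ido1, the enzyme that opens the tryptophan ring on the way to kynurenine, had log2 ratios of 2.32, 1.69, 1.39 and 1.95 on wild-type arrays 1 to 4 and 0.69, 0.56 and 0.67 on knockout arrays 1 to 3. The knockout arrays lay close together and under the whole wild-type range. Ido1 fell 2.3-fold (limma adjusted p = 0.00487, and 0.00597 under the slide block). Slc3a2, the chain shared by the LAT1 and other amino acid transporters, read 0.96, 0.98, 0.90 and 0.85 on the wild-type arrays and 0.38, 0.30 and 0.24 on the knockout arrays. It fell 1.53-fold (adjusted p = 0.0017, and 0.0485 with the block). Its transport partner Slc7a5 differed by -0.34 (adjusted p = 0.346) with overlapping groups.

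Afmid, which releases kynurenine from its formyl form, rose 1.63-fold (limma adjusted p = 0.0276). The call was lost under the slide block (adjusted p = 0.268) and without wild-type array 1, wild-type array 2, knockout array 2 or knockout array 3 (adjusted p up to 0.0885). Ido2, a paralog of Ido1, had signal over background on all wild-type arrays and on no knockout array. Its measured sample-channel level was 6.82 in the wild type and 6.18 in the knockout. The lower bound set for dim probes, from the sample channel only, was a 1.52-fold fall. The reference channel also differed by -0.19, so the fall was smaller as a ratio. The log ratio differed by -0.46 (1.37-fold), with overlapping groups, and did not pass (limma adjusted p = 0.0773). It differed by 0.02 on slide 1 and by -0.74 on slide 2. Ido2 was called without wild-type array 4 and in 4 of the 19 alternatives other than leaving out 1 array, among them the sample channel alone (adjusted p = 0.00955). Il4i1, a tryptophan-consuming oxidase of immune cells, differed by -0.29. Tdo2, the liver enzyme of the same step as Ido1, was above background on no array and Kynu on 1.

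The receptor's protein family and that of Tiparp held 4 called genes between them. Among 11 tested genes of the bHLH-PAS family, which includes the receptor's partners, 1 fell and none rose, at a median of 0.05, against 7.53% of all tested genes called in either direction. The gene that fell was Hif3a, a hypoxia-inducible factor, by 1.66-fold (limma adjusted p = 0.0192), and its other probes gave 0.01 and -0.22 without passing. The Hif3a call was lost under the slide block (adjusted p = 0.19) and without wild-type array 4, knockout array 2 or knockout array 3 (adjusted p up to 0.0581). Hif1a, which also pairs with ARNT, differed by 0.41 (adjusted p = 0.612), and Epas1, its close relative, by 0.14.

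Tiparp belongs to the PARP family of ADP-ribosyltransferases. Of 15 other family genes, all tested, 2 fell and 1 rose, at a median of -0.21, against the same 7.53% called among all tested genes. Parp12 fell 1.75-fold (limma adjusted p = 0.0181) and Parp14 fell 1.31-fold (adjusted p = 0.044), both known as interferon-induced members. Parp1, the DNA repair member, rose 1.43-fold (adjusted p = 0.0205). None of the 3 passed under the slide block (adjusted p = 0.072, 0.166 and 0.161), and all were lost when some arrays were left out. For Parp12 these were wild-type array 4, knockout array 2 and knockout array 3 (adjusted p up to 0.0671). Parp1 was called only without wild-type array 1 or knockout array 1, and Parp14 only without wild-type array 2, with adjusted p-values up to 0.0799 and 0.14 in the other fits. Parp6 differed by -0.43 (adjusted p = 0.0679) with no overlap, and was called without wild-type array 1.

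The genes whose log2 ratios ran most like those of each member over the 7 arrays were then listed, out of 16640 tested genes with a symbol and a value on every array. The coefficients are a description, since the arrays share the 2 groups, the slides and the reference. Nearest to Ahr were Nol4l (Pearson r = 0.994), Slc3a2 (0.987), Arl14ep (0.987), Morn4 (0.987) and Mpst (0.986). All 5 were called lower, with log2 differences of -0.87, -0.61, -1.24, -0.61 and -1.62. They were picked for following Ahr, whose groups lay apart on these same arrays. Their calls largely follow from that choice and are no separate result. Slc3a2 is also a gene of the ligand list.

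Nearest to Tiparp were Kiss1r (r = 0.987), Klhl36 (0.986), Lrrfip2 (0.985), Armc10 (0.985) and Tmem123 (0.983), with differences of -0.50 to -0.18. The genes nearest to Cyp1b1 were Selenom (0.989), Gna13 (0.987), Clec11a (0.987) and Ttc39b (0.986), with differences of 0.20 to 0.45. For Ahrr they were Cfap45 (0.975), Pde11a (0.973), Gm14092 (0.961) and Fam216b (0.96). None of these genes was called.

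Across processing settings the 4 tested members kept their signs. The plot of differences by setting shows the Ahr values close together and those of Cyp1b1 spread with the arrays kept.

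**Figure D4:**
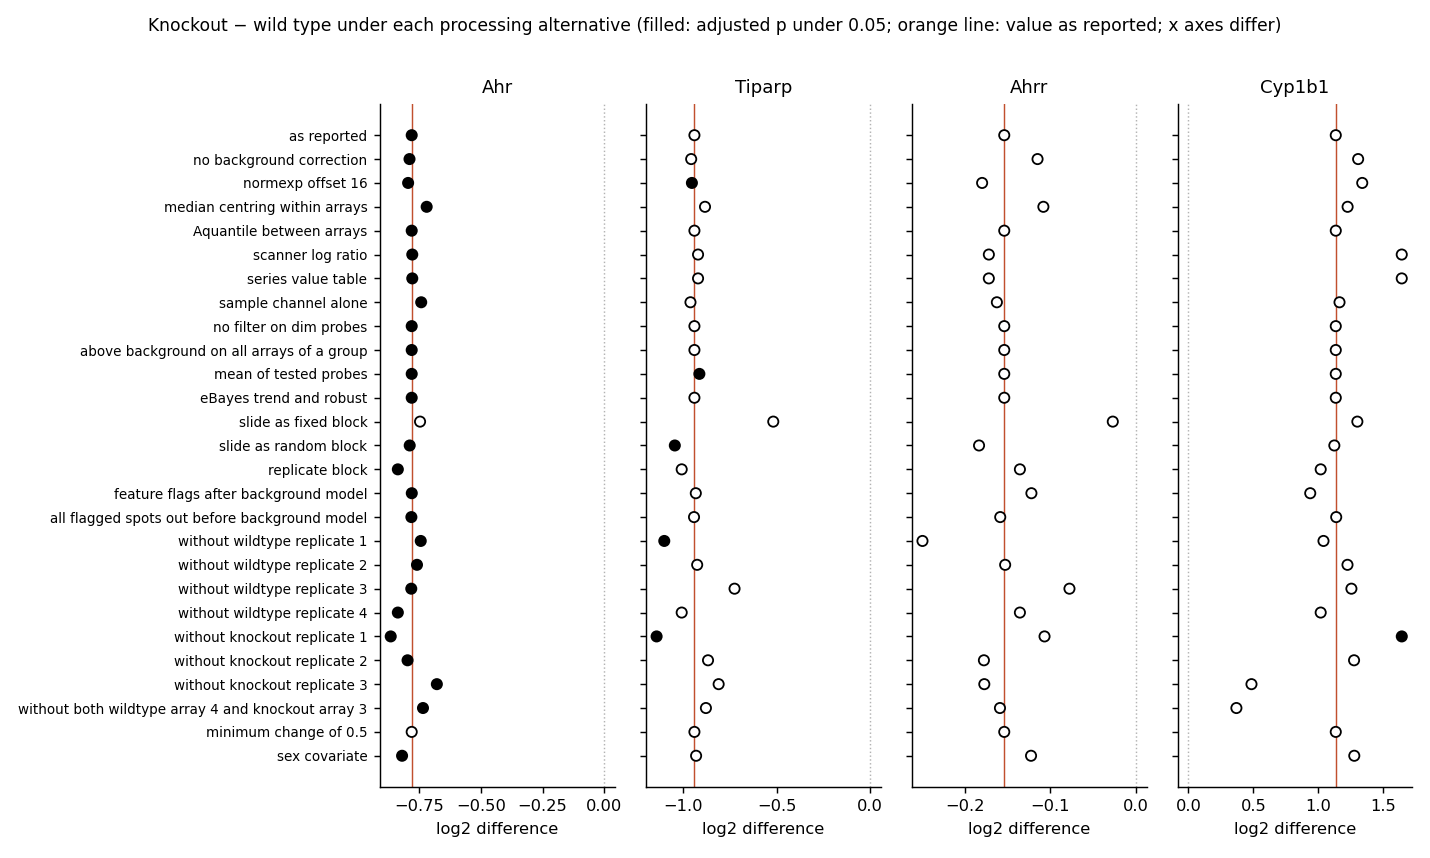
Log2 difference, knockout minus wild type (x axis, a separate range in each panel), of Ahr, Tiparp, Ahrr and Cyp1b1 as reported and under 26 processing alternatives (y axis), filled where the limma adjusted p was under 0.05. Ahr stays between -0.87 and -0.68 and is open in 2 settings, and Cyp1b1 runs from 0.37 to 1.64 and is filled in 1.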

How the data were processed

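Two-colour Agilent arrays were analysed: 4 wild-type and 3 knockout, with the ILC2 sample in Cy5 and Stratagene Universal Mouse Reference RNA in Cy3, per the labels. The deposited scanner files hold linear intensity per spot and a log10 ratio of red over green computed by the software named in the file headers (Agilent Feature Extraction 11.0.1.1; 10.7.3.1 per the submitters' processing notes). The series value table deposited with them is on a log2 scale. It equals that log10 ratio turned to log2 within 0.0005 on every array (column medians 0.163 to 0.254), which settles scale, direction and centring. The design preferred mean signals; the files hold medians, so medians were used.

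In limma 3.58.1 (R 4.3.3), 2597 spots with feature outlier or non-uniform background flags were left out, median signals were corrected with normexp (offset 50), which draws dim ratios towards 0, then normalized by loess within arrays. The control spots had weight 0 and were left out afterwards. Spots were averaged per probe. Probes were named by accession through RefSeq genes (GRCm38.p6): 26581 of 39429 matched. The array design uses build mm9, so probe positions are not given, and the coordinates of the promoter windows are those of GRCm38.p6. A gene was represented by its probe of highest mean sample-channel level. A gene was tested where the sample channel was above background on at least 3 arrays with 2 values per group. Groups were compared with lmFit and eBayes, without a block, Benjamini-Hochberg over 25347 genes, threshold 0.05; 88 tested genes had a missing value. A fold that is a lower bound sets the bright group against the higher of the dim probe and the lowest level above background, and is open to dye bias. The fit was tested on simulated data. Figures used matplotlib 3.10.9.

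The members and the 13 gene lists were chosen with earlier results of these data known. Named genes were the members, Gfi1, the called genes of each pathway list with up to 4 of the largest differences, and the 5 nearest genes by correlation. Some genes so chosen are not reported here. Other genes named were chosen after their values were seen. Alternatives covered background correction, normalization, the source of the ratio, filters, probe choice, variance model, slide, replicate number, flags, arrays left out, a minimum change of 0.5 and a sex covariate (Xist minus Ddx3y). Scan time and slide are the same batch.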

Additional observations from a re-analysis of the deposited data

Results flagged for a closer look

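Among 71 sets of 4 wild-type values checked, of member probes and list genes, 5 had 1 array whose gap to the nearest other array exceeded Dixon's 95% critical value. Chance gives such a gap in about 1 in 20 groups. All 5 are genes of the lists and none is a member. Nqo1 read -2.56 on wild-type array 3, against -2.47 to -2.45 on the others. Gsta1 read -3.51 on wild-type array 2, against -3.63 to -3.62. Il21 read 0.24 on wild-type array 2, against -0.01 on each of the others. Il1r1 read -3.06 on wild-type array 4, against -3.43 to -3.38. Hif1a read 2.01 on wild-type array 3, against 0.95 to 1.11, and 2.58 on knockout array 1. All values are log2 ratios, and the knockout group of 3 arrays was not checked.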

How the results depend on the processing

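Results were recomputed under 26 alternatives, 7 of which left out 1 array each. Ahr was called in all 7 of those (log2 difference -0.87 to -0.68) and in 17 of the 19 others. It was lost with slide as a fixed block (-0.75, limma adjusted p = 0.0681) and against a minimum change of 0.5 (-0.78, adjusted p = 0.689). Ahrr was never called (-0.25 to -0.08 with 1 array out, -0.18 to -0.03 otherwise). Cyp1b1 ran from 0.49 to 1.64 with 1 array out, called in 1 of 7, and from 0.37 to 1.64 otherwise, never called. Tiparp passed with normexp offset 16 (-0.95), the mean of its tested probes (-0.91) and slide as a random block (-1.05), and ran from -1.14 to -0.73 with 1 array out, called in 2 of 7. With wild-type array 4 and knockout array 3 both left out, which were in doubt in an earlier analysis for background or scanner quality, Ahr stayed called at -0.74 (adjusted p = 0.00788) and Cyp1b1 was at 0.37. No called value changed sign. The medians of the receptor complex, the battery and the bHLH-PAS lists lie near 0, and with 1 array out they ran from -0.00 to 0.14, from -0.02 to 0.02 and from -0.08 to 0.18.

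Over all genes, the calls higher and lower were 233 and 245 with slide as a fixed block, 485 and 596 with the replicate block, 483 and 654 without both doubted arrays and 116 and 94 with the minimum change, against 833 and 1075. With 1 array out they were 528 to 881 and 735 to 1017. Deviations from the group means correlated weakly between same-numbered arrays (r = 0.04, 0.24 and 0.02). The sample titles number the replicates without naming a pairing, and these values cannot settle whether there was one. With the replicate block, a fit in which wild-type array 4 has no partner and adds nothing, Ahr was at -0.84 (adjusted p = 0.0119), Tiparp at -1.01, Ahrr at -0.14 and Cyp1b1 at 1.02, of which Ahr alone was called.

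List counts moved as follows, with the cause not tested. For the receptor complex, 1 gene was higher in the sample channel and 1 lower in the sample channel, the mean of probes, the slide as a random block and the sex covariate (0 to 1 each way with 1 array out). For the battery, 0 to 1 were higher with 1 array out. For the lymphocyte genes, 1 was higher with the fixed slide block, 3 without both doubted arrays and 0 with the minimum change (4 to 6 with 1 array out). For the ligand genes, 0 were higher with the scanner ratio, series table, sample channel, fixed slide block, without both doubted arrays and with the minimum change (0 to 1 with 1 array out), 0 were lower with the minimum change, and the median was -0.35 in the sample channel. For bHLH-PAS genes, 1 was higher in the sample channel (0 to 1 with 1 array out), while 2 were lower in the sample channel, the mean of probes, the slide random block and the sex covariate, and 0 with the fixed slide block, replicate block, without both doubted arrays and with the minimum change (0 to 2 with 1 array out). For PARP genes, 0 were higher with the scanner ratio, series table, fixed slide block, replicate block, without both doubted arrays and with the minimum change (0 to 1 with 1 array out). In that list 1 was lower with offset 16, median centring, scanner ratio, series table, trended robust eBayes and the replicate block, and 0 in the sample channel, with the fixed slide block, without both doubted arrays and with the minimum change (0 to 2 with 1 array out). Signal over background limits what Cyp1a1 and the dimmer Ahr and Ahrr probes can show.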
